A study of Mus musculus with 18 samples.

Results

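The genes described here carry calcium into the cells of the arterial wall, release it from the internal store, or remove it from the cytoplasm. They are 34 genes named by symbol, of 54281 genes in the count table, and the list was drawn up by function, with earlier results of these data known. RNA came from descending aortas with all 3 layers of the wall, taken from male C57BL/6 mice in 3 groups of 6. HGPS mice carried the LMNAG609G knock-in, on both alleles by the study's description of its model, as a mouse model of Hutchinson-Gilford Progeria Syndrome, and were 64 to 75 d old. Ages ran from 62 to 95 d in 2-mo WT and from 609 to 762 d in 24-mo WT. The knock-in is carried by every cell of the animal, and the level of Lmna mRNA does not check it. Lmna was at a median of 418 CPM, the count scaled to library size, in 2-mo WT, 600 CPM in HGPS and 404 CPM at 24 mo. Library totals ranged from 17838351 to 30844775 counts in HGPS, from 12413229 to 21016752 in 2-mo WT and from 13622602 to 19871697 in 24-mo WT. The labels name no sequencing batch.

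Contraction of vascular smooth muscle follows the calcium concentration in its cytoplasm. Voltage-gated channels of the plasma membrane admit calcium upon depolarization, TRP and stretch-activated channels admit cations in response to receptors or to load, and the Stim and Orai proteins open an entry route when the store is empty. Inositol trisphosphate (IP3) receptors and ryanodine receptors release calcium from the sarcoplasmic reticulum. The SERCA pumps return it to that store, and the plasma membrane pumps and the sodium-calcium exchanger expel it from the cell.

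The members spanned a wide range of levels. On the scale of CPM per kb of exon, the highest in 2-mo WT was Atp2a2, the main SERCA pump of heart and smooth muscle, with a median of 174. Itpr1, the type 1 IP3 receptor, followed at 40.8, then Atp2b4, a plasma membrane pump, at 28.6. Atp2a3 was at 22.96, Orai3 at 21.4 and Cacna2d1 at 18.6 on the same scale. Ryr1, Ryr3, Casq2 and Trpc4 had too few counts to enter the main test, and the other 30 reached 10 counts in 6 or more mice.

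Between HGPS and 2-mo WT, 16 of the 30 members tested fell and 5 rose, where both words mean that the quasi-likelihood test of edgeR gave an adjusted p (Benjamini-Hochberg, over all 15210 genes tested) under 0.05. Of all those genes, 21.2% fell and 22% rose. With the study's own cut-offs of 1.5-fold and an adjusted p under 0.001, 9 members fell and 0 rose, against 4.23% and 5.27% of all genes. An unadjusted p under 0.05 added no member to the 5 that rose, and DESeq2 took 1 of them, Piezo1, past both cut-offs. In 15 of the 30 members every HGPS mouse was below every 2-mo WT mouse, and in 1 every HGPS mouse was above, while such separation was seen in 10.9% and 11% of all genes. The median log2 fold change was -0.27 over the members tested and 0.00 over all genes tested.

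Between 24-mo WT and 2-mo WT, 4 members rose and 0 fell, against 6.29% and 5.38% of all genes. At an unadjusted p under 0.05 1 member was lower, the exchanger Slc8a1, and DESeq2 and limma-voom also gave 0 that fell. Only Cacna1h passed the study's cut-offs in the main test, where 1.28% of all genes rose and 0.717% fell. All 24-mo mice were above all 2-mo WT mice in 3 members and below them in 0, against 3.2% and 3.08% of all genes. Set directly against 24-mo WT, 19 members were lower in HGPS and 4 were higher, where 23.6% of all genes were lower and 23.8% were higher. The 2 comparisons with 2-mo WT share their control mice.

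**Figure D1:**
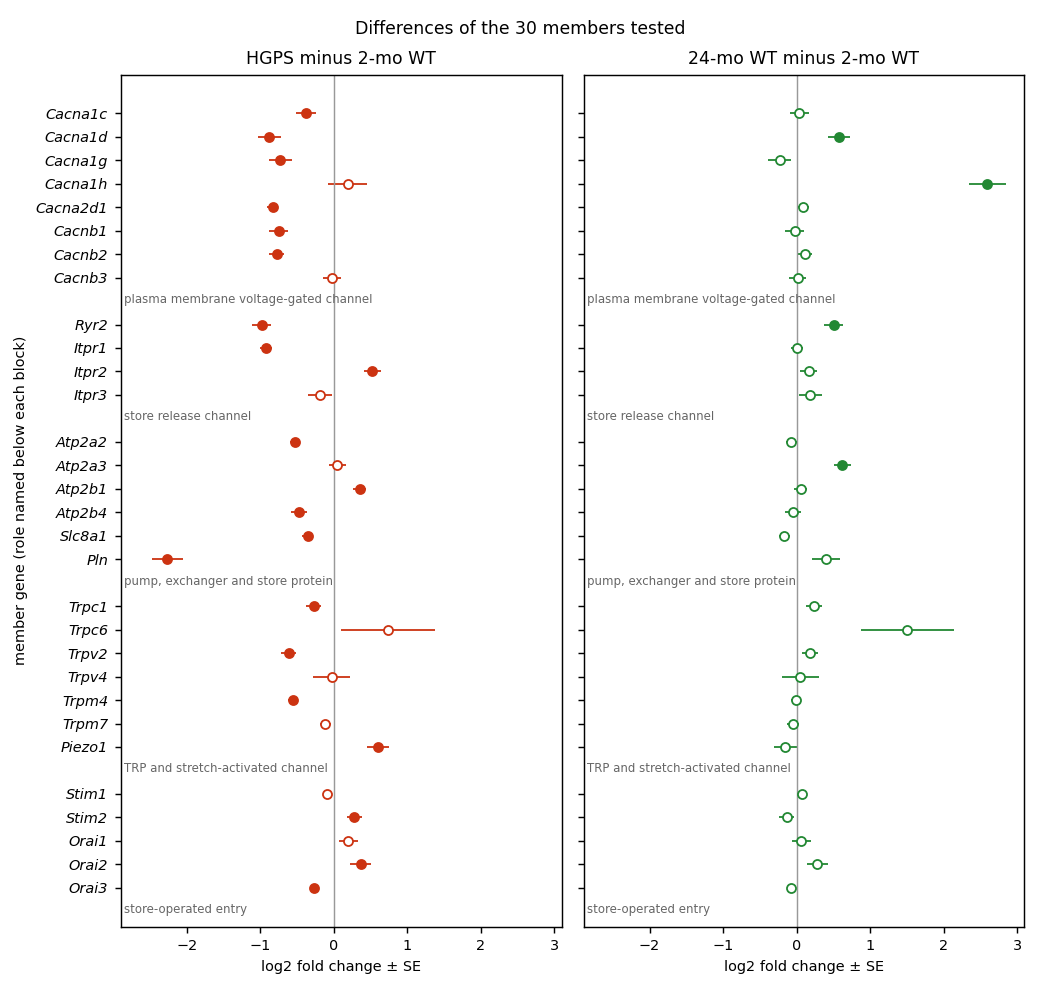
Log2 fold change (horizontal axis) of the 30 members tested, grouped by role, for HGPS minus 2-mo WT at the left and 24-mo WT minus 2-mo WT at the right, with bars of 1 standard error. Filled points had an adjusted p under 0.05: 16 lie below 0 and 5 above it in HGPS, and 4 lie above 0 at 24 mo.

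These are bulk samples, in which fewer cells of a type and less RNA per cell cannot be told apart. Markers of smooth muscle and of fibroblasts fell with the members in HGPS. Of 10 smooth muscle markers, 7 fell in HGPS, and their summed level was 22050 to 30880 CPM in HGPS, 33850 to 42910 CPM in 2-mo WT and 34720 to 39550 CPM in 24-mo WT. Myh11, the smooth muscle myosin heavy chain, fell by 1.17 on the log2 scale, whereas Tagln and Myocd were at 0.00 and 0.09. The median log2 fold change of the 10 smooth muscle markers was -0.56. Of 8 fibroblast markers 5 fell and 0 rose, with a median of -0.54, and their summed level was 2656 to 3575 CPM in HGPS, 3929 to 4443 CPM in 2-mo WT and 3060 to 4189 CPM in 24-mo WT. At 24 mo 5 of the 8 fibroblast markers also fell and 0 rose, with a median of -0.42, whereas 0 members fell and 4 rose. The part of fibroblast RNA was not tested. Of 8 endothelial markers 1 rose and 0 fell (median -0.03). With a smooth muscle score as a covariate, 0 of the members fell and 0 rose in HGPS, but only 17 of all genes rose and 1 fell in that fit. Some differences stayed about as large there with wider errors, among them -2.10 for Pln (SE 0.47, adjusted p = 0.0983), 0.40 for Stim2 (SE 0.26, adjusted p = 0.731) and 0.47 for Piezo1 (SE 0.39, adjusted p = 0.812), while others shrank, such as -0.36 for Itpr1 (SE 0.15, adjusted p = 0.493). That score did not overlap between HGPS and 2-mo WT, so its part in the differences cannot be told apart from the genotype.

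The largest block of lower genes encoded the voltage-gated channels. Of 8 members 6 fell in HGPS, 5 of them past both cut-offs, and the median log2 fold change was -0.74. Cacna1c, the pore of the principal L-type channel of arteries, had 50.1, 54.7 and 62.2 CPM in HGPS and 65.2, 72.3 and 78.5 CPM in 2-mo WT, as the lowest, the median and the highest of the 6 mice. It fell by 0.38 on the log2 scale (SE 0.13, adjusted p = 0.0291), with no overlap between the groups. This call was lost when HGPS replicate 1, 3 or 6 or 2-mo WT replicate 4 was left out (adjusted p = 0.0541, 0.0586, 0.0515 and 0.0584). The other L-type pore gene, Cacna1d, had 5.48, 6.72 and 7.31 CPM in HGPS against 7.53, 12.5 and 14.6 CPM. Its log2 fold change was -0.88 (SE 0.15, adjusted p = 0.000168), again without overlap.

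Among the T-type pore genes, which open at lower voltages, Cacna1g had 6.91, 8.79 and 10.3 CPM in HGPS and 11.97, 14.6 and 16.8 CPM in 2-mo WT, a log2 fold change of -0.73 (SE 0.16, adjusted p = 0.000948). Cacna1h was low in both, at medians of 1.72 and 1.30 CPM, and did not pass the test (log2 fold change 0.19, adjusted p = 0.596). Of the 4 auxiliary subunit genes among the members, 3 were lower as well. Cacna2d1, an extracellular subunit that aids delivery to the membrane, had 111, 126 and 151 CPM in HGPS and 204, 230 and 255 CPM in 2-mo WT. It fell by 0.83 on the log2 scale (SE 0.08, adjusted p = 2.2e-07).

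The cytoplasmic beta subunits did not move alike. Cacnb2 had 20.9, 21.9 and 27.0 CPM in HGPS against 31.8, 40.4 and 47.6 CPM, a fall of 0.78 (SE 0.10, adjusted p = 6.64e-06). Cacnb1 had 2.02, 2.71 and 3.01 CPM against 3.91, 4.50 and 4.81 CPM and fell by 0.75 (SE 0.13, adjusted p = 0.000198). Cacnb3, the most abundant of them per kb, was at medians of 30.7 and 29.6 CPM, with a log2 fold change of -0.03 (SE 0.12, adjusted p = 0.871). Its share of the summed per-kb level of the 4 beta subunit genes was 69.4% to 80.1% in HGPS and 58.9% to 68.0% in 2-mo WT.

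**Figure D2:**
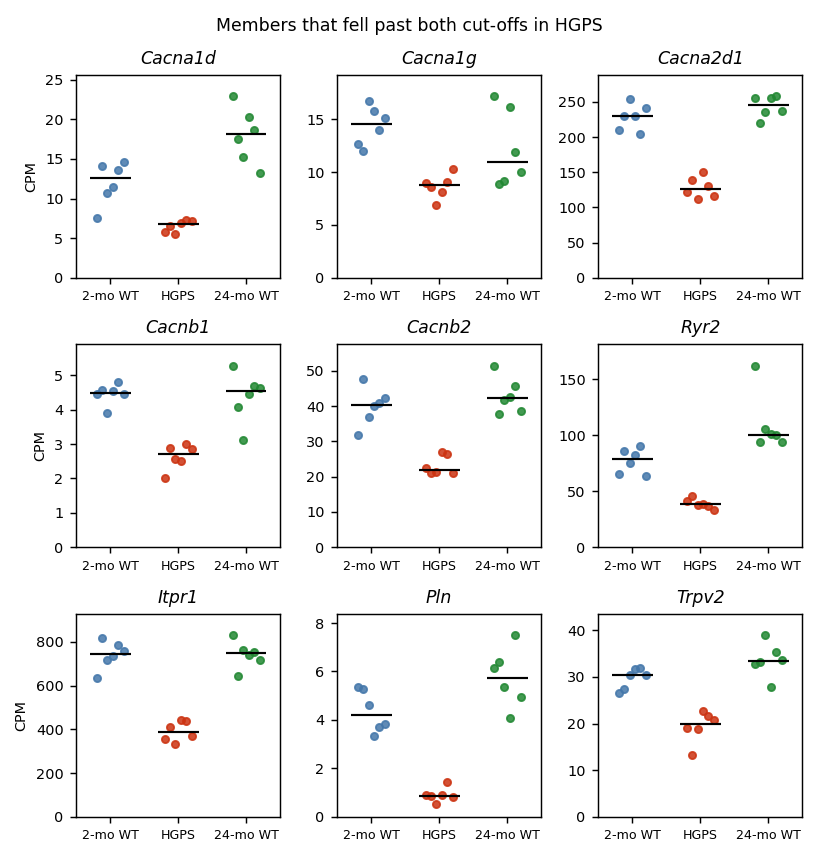
CPM (vertical axes, from 0) in each mouse of the 9 members that fell past both cut-offs in HGPS. Each point is 1 mouse and each line a group median: in all 9 panels the 6 HGPS points lie below the 6 points of 2-mo WT.

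Of the store release channels, the 2 main genes fell and a minor one rose. Ryr2 (chromosome 13, 11553102 to 12106945), the ryanodine receptor of heart and smooth muscle, had 32.8, 38.4 and 45.98 CPM in HGPS and 63.8, 78.5 and 90.9 CPM in 2-mo WT. It fell by 0.98 on the log2 scale (SE 0.13, adjusted p = 9.03e-06). Itpr1 (chromosome 6, 108213096 to 108551109) had 335, 390 and 442 CPM against 635, 747 and 817 CPM, a fall of 0.92 (SE 0.08, adjusted p = 1.45e-07). In both genes HGPS was close to 2-fold lower (1.98-fold for Ryr2 and 1.89-fold for Itpr1), and no HGPS mouse reached a 2-mo WT mouse.

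Itpr2, the type 2 IP3 receptor, went the other way, with 53.7, 66.4 and 81.0 CPM in HGPS and 38.3, 46.1 and 56.6 CPM in 2-mo WT. Its log2 fold change was 0.52 (SE 0.12, adjusted p = 0.00153), and the groups overlapped. Itpr3 did not pass the test (log2 fold change -0.19, adjusted p = 0.354). On the per-kb scale Itpr2 made up 12.3% to 20.7% of the 3 IP3 receptor genes in HGPS, 5.35% to 9.44% in 2-mo WT and 6.36% to 8.06% in 24-mo WT. The summed per-kb level of the 3 genes was 25.4 to 29.8 CPM in HGPS and 40.5 to 49.4 CPM in 2-mo WT, so the composition and the total both differed in range. Ryr1, the skeletal muscle form, had 4 to 17 counts per library in HGPS, 0 to 4 in 2-mo WT and 0 to 6 in 24-mo WT. Ryr3 had at most 8 counts in any library, which does not show a difference at this depth.

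The pump and store genes held the largest fall of any member. Pln (chromosome 10, 53337667 to 53345987, GRCm38.p6) encodes phospholamban, the small inhibitor of the SERCA pump, and had 0.510, 0.869 and 1.42 CPM in HGPS, where 2-mo WT had 3.33, 4.22 and 5.37 CPM. The log2 fold change was -2.27 (SE 0.21, adjusted p = 2.62e-07), or 4.81-fold lower. The libraries held 11 to 34 counts of it in HGPS and 41 to 117 in 2-mo WT. Casq2, the cardiac form of the calcium-binding store protein calsequestrin, had 8 to 18 counts in HGPS and 0 to 9 in 2-mo WT. Scaled to library size the groups overlapped, at 0.336 to 0.729 CPM and 0 to 0.533 CPM. The filter left Casq2 out of the main test, and in the edgeR fit without that filter its adjusted p was 0.276.

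The pump that phospholamban inhibits was also lower. Atp2a2 had 664, 718 and 793 CPM in HGPS and 914, 1059 and 1110.0 CPM in 2-mo WT, a fall of 0.53 (SE 0.07, adjusted p = 1.42e-05). Atp2a3, a second SERCA gene, was at medians of 125 and 121 CPM with a log2 fold change of 0.05 (adjusted p = 0.782). At the plasma membrane the 2 pump genes moved in opposite directions. Atp2b4 had 216, 244 and 265 CPM in HGPS against 273, 350 and 357 CPM and fell by 0.47 (SE 0.11, adjusted p = 0.00217). Atp2b1 had 99.3, 103 and 112 CPM against 70.4, 80.0 and 96.9 CPM and rose by 0.35 (SE 0.09, adjusted p = 0.00292). Among the members tested it was the 1 with every HGPS mouse above every 2-mo WT mouse. Slc8a1, the sodium-calcium exchanger, had 136, 153 and 179 CPM in HGPS and 184, 197 and 220 CPM in 2-mo WT, a fall of 0.36 (SE 0.07, adjusted p = 0.00076). With brown fat and skeletal muscle scores as covariates that call was lost (-0.24, adjusted p = 0.0971). Over all genes 1827 fell in that fit, against 3227 in the main test.

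Because Pln and Ryr2 are also heart genes, cardiac muscle markers were read beside them. Of the 9 markers 5 had under 10 counts a library on average, and their summed level was 5.74 to 8.11 CPM in 2-mo WT, 11.5 to 29.6 CPM in HGPS and 15.4 to 38.3 CPM in 24-mo WT. Of the 5 cardiac markers tested, 3 rose in HGPS and 1 rose at 24 mo. Tnnt2 rose in HGPS by 2.41 and at 24 mo by 3.19 on the log2 scale. Nkx2-5 was at a median of 0 CPM in all 3 groups. The cardiac sum was higher in HGPS while Pln and Ryr2 were lower. With a cardiac muscle score as a covariate, the log2 fold change in HGPS was -2.36 for Pln (adjusted p = 4.21e-06) and -1.08 for Ryr2 (adjusted p = 2.96e-05). The source of the Pln and Ryr2 RNA was not tested.

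In the TRP and stretch-activated group, 3 of 7 members tested fell and 1 rose. Trpv2, a cation channel of the vanilloid family, had 13.3, 19.9 and 22.8 CPM in HGPS and 26.6, 30.3 and 31.9 CPM in 2-mo WT. It fell by 0.61 (SE 0.10, adjusted p = 0.000135). Trpm4, which is opened by intracellular calcium and conducts monovalent cations, had 16.9, 18.4 and 20.1 CPM against 23.8, 27.3 and 28.9 CPM and fell by 0.56 (SE 0.07, adjusted p = 7.31e-06). Neither gene overlapped between the groups. Trpc1 had 18.6, 21.8 and 26.9 CPM against 22.6, 26.1 and 32.7 CPM, with overlap, and a log2 fold change of -0.27 (SE 0.10, adjusted p = 0.0391). Its call was lost in 10 of 27 alternative fits without a cell type score, with an adjusted p of up to 0.126, among them those without HGPS replicate 1, 3, 5 or 6 and without 2-mo WT replicate 4, 5 or 6.

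Piezo1 (chromosome 8, 122481698 to 122551329), the mechanically opened cation channel, was higher in HGPS, with 34.2, 46.1 and 64.4 CPM against 24.5, 32.3 and 34.2 CPM. Its log2 fold change was 0.60 (SE 0.15, adjusted p = 0.00344), and the ranges just met. Trpm7, the most abundant channel of this group per kb, was at medians of 136 and 153 CPM and did not pass the test (log2 fold change -0.12, adjusted p = 0.252). Trpv4 was at medians of 5.94 and 6.36 CPM (log2 fold change -0.03), and Trpc6 ranged from 0.280 to 2.73 CPM in HGPS and from 0.160 to 1.40 CPM in 2-mo WT.

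Store-operated entry genes differed by less than 1.5-fold in HGPS. Orai3, the most abundant of the 3 pore genes per kb, had 35.8, 38.4 and 41.1 CPM in HGPS and 44.4, 45.9 and 49.95 CPM in 2-mo WT. It fell by 0.28 (SE 0.05, adjusted p = 0.000443) without overlap. Orai2 had 5.91, 7.40 and 9.70 CPM against 4.55, 5.84 and 6.90 CPM, a log2 fold change of 0.37 (SE 0.14, adjusted p = 0.0416). Stim2, a store sensor, had 38.5, 41.7 and 48.9 CPM against 28.9, 36.5 and 39.3 CPM and a log2 fold change of 0.28 (SE 0.10, adjusted p = 0.0308). Both of these overlapped between the groups. The call for Stim2 was lost in 4 of 27 fits without a score (without HGPS replicate 4 or 6, or 2-mo WT replicate 1 or 3, adjusted p up to 0.0756), and that for Orai2 in 12 of 27, with an adjusted p of up to 0.123, among them those without HGPS replicate 1, 2, 3 or 6, 2-mo WT replicate 2, 4 or 6, or 24-mo WT replicate 4. Stim1, the principal sensor, and Orai1, its best-known partner, did not pass the test (log2 fold changes -0.09 and 0.20).

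Macrophage and brown fat markers rose beside the members that rose, and so did markers of other lists. Cell cycle markers rose in 6 of 6 and white fat markers in 6 of 8, where 1 fell. All 3 neuron markers tested rose. All 8 macrophage markers were higher in HGPS, with a sum of 541 to 818 CPM against 303 to 455 CPM in 2-mo WT, as were all 8 brown fat markers, at 492 to 1854 CPM against 107 to 667 CPM. With brown fat and skeletal muscle scores as covariates, the log2 fold change was 0.17 for Itpr2 (adjusted p = 0.392), 0.19 for Piezo1 (adjusted p = 0.502) and 0.01 for Orai2 (adjusted p = 0.979). In the same fit the other 2 kept their calls, at 0.58 for Stim2 (adjusted p = 0.00241) and 0.50 for Atp2b1 (adjusted p = 0.00957). Over all genes 1781 rose in that fit, against 3340 in the main test. The part of macrophage RNA, or of the cell cycle, white fat or neuron lists, in these differences was not tested.

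At 24 mo the voltage-gated and store genes that moved were higher, not lower. Cacna1h (chromosome 17, 25374285 to 25433783) had 5.67, 6.51 and 12.9 CPM in 24-mo WT and 0.829, 1.30 and 1.96 CPM in 2-mo WT. It rose by 2.60 on the log2 scale (SE 0.25, adjusted p = 9.88e-07), or 6.04-fold, and HGPS lay 2.41 below 24-mo WT on that scale (adjusted p = 3.11e-07). The share of Cacna1h in the summed per-kb level of Cacna1g and Cacna1h, the 2 T-type genes among the members, was 29.2% to 47.4% at 24 mo. It was 6.71% to 10.8% in 2-mo WT and 8.36% to 20.9% in HGPS. Cacna1d had 13.2, 18.1 and 22.9 CPM at 24 mo and rose by 0.58 (SE 0.15, adjusted p = 0.0142), with overlap. Without 24-mo WT replicate 1, these were 2.41 for Cacna1h (adjusted p = 1.87e-06) and 0.50 for Cacna1d (adjusted p = 0.0344).

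Ryr2 had 93.6, 101 and 162 CPM at 24 mo, all above the 2-mo WT mice, and rose by 0.50 (SE 0.13, adjusted p = 0.0117). Its highest mouse, replicate 1, stood apart, and without it the log2 fold change was 0.36 (adjusted p = 0.0152). With a cardiac muscle score as a covariate it was 0.41 (adjusted p = 0.0686). Atp2a3 had 162, 173 and 198 CPM at 24 mo and rose by 0.62 (SE 0.12, adjusted p = 0.00118), again without overlap. Itpr1 was at a median of 748 CPM at 24 mo and 747 CPM at 2 mo (log2 fold change 0.00, SE 0.08), and Pln was at 5.75 and 4.22 CPM (0.39, adjusted p = 0.202).

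Trpc4, a receptor-operated channel that the filter left out, had 7 to 23 counts per library at 24 mo, 0 to 1 in 2-mo WT and 2 to 4 in HGPS. The 3 ranges did not overlap. In the fit without a filter on low counts its adjusted p was 1.66e-05 for 24-mo WT against 2-mo WT and 0.000167 for HGPS against 24-mo WT. For HGPS against 2-mo WT, where Trpc4 was higher in HGPS, it was 0.0448. Its group total in 2-mo WT was 3 counts, so no fold is given. Neuron and Schwann cell markers were also higher at 24 mo, where their sums were 81.0 to 127 CPM and 29.6 to 40.6 CPM, against 39.5 to 68.2 CPM and 23.9 to 27.1 CPM in 2-mo WT. In HGPS the sums were 56.4 to 95.8 CPM and 23.7 to 36.8 CPM. Of 3 neuron markers tested, 3 rose in HGPS and 2 rose at 24 mo. Of 4 Schwann cell markers tested, 2 rose and 1 fell in HGPS, and 3 rose at 24 mo. The part of these cell types in the rise of Cacna1h and Trpc4 was not tested.

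**Figure D3:**
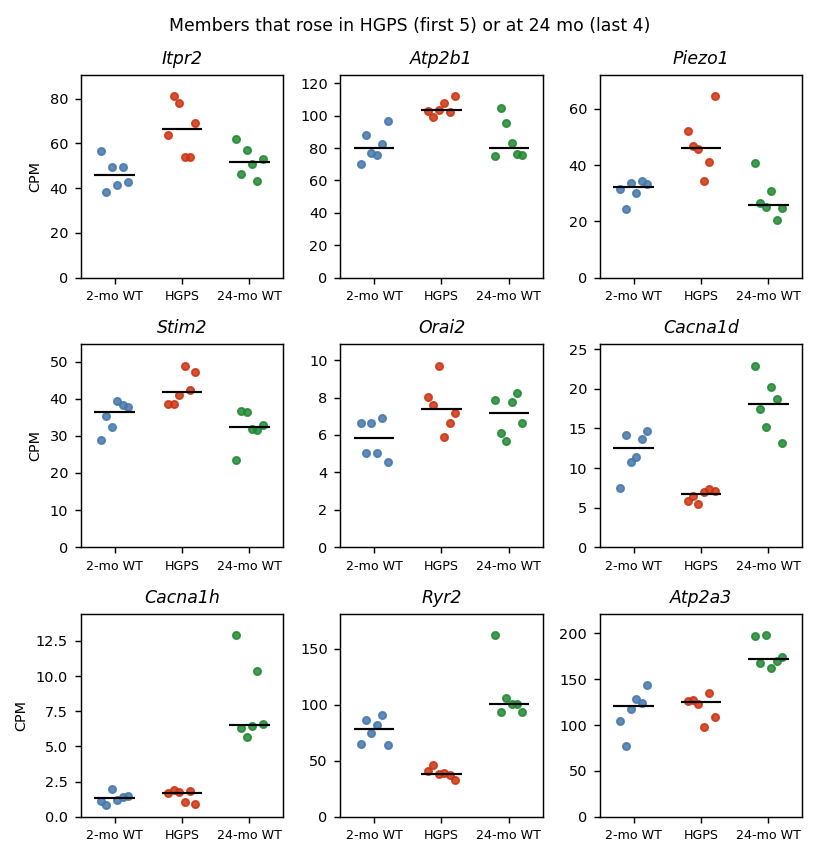
CPM (vertical axes, from 0) in each mouse of the 5 members that rose in HGPS, followed by the 4 that rose at 24 mo. Each point is 1 mouse and each line a group median: Cacna1h reaches 5.67 to 12.9 CPM at 24 mo and stays under 2 CPM in both younger groups.

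Ryr2 and Cacna1d therefore lay highest at 24 mo and lowest in HGPS, 1.49 and 1.46 apart on the log2 scale (adjusted p = 3.69e-08 and 4.17e-07). Pln differed by 2.66 in the same direction (adjusted p = 1.46e-08), and it remained lower when the smooth muscle score was a covariate (adjusted p = 0.0411). That score did not overlap between HGPS and 24-mo WT, so the fit cannot separate it from the difference between these groups. Atp2a3 was 0.58 lower in HGPS than at 24 mo (adjusted p = 0.000437). Cacna1c was 0.42 lower (adjusted p = 0.0155), or 0.26 lower without 24-mo WT replicate 1 (adjusted p = 0.036). With brown fat and skeletal muscle scores as covariates it was 0.44 lower (adjusted p = 0.0721), and 7 of the 23 calls between HGPS and 24-mo WT were lost in that fit. Over all genes 2178 were lower and 2128 higher there, against 3583 and 3618 in the main test. Among the members higher in HGPS, Piezo1 exceeded 24-mo WT by 0.75 (adjusted p = 0.000459) and Stim2 by 0.41 (adjusted p = 0.00235).

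**Figure D4:**
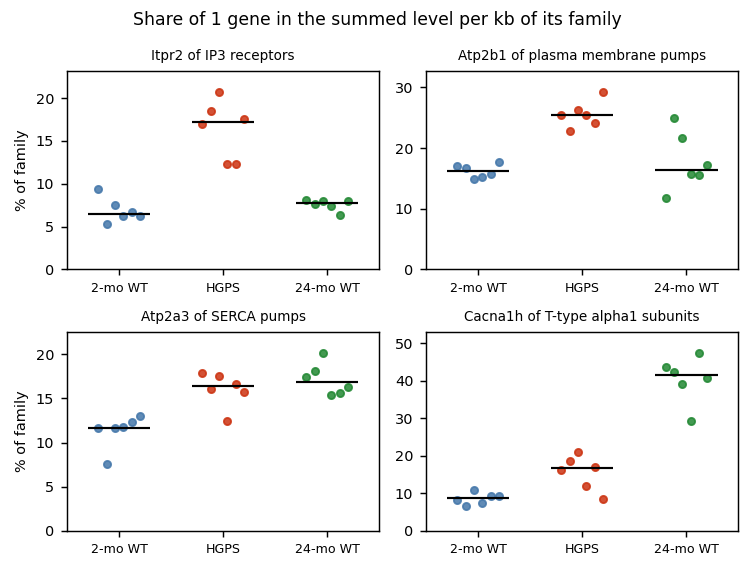
Share (percent, vertical axes from 0) of Itpr2, Atp2b1, Atp2a3 and Cacna1h in the summed CPM per kb of their gene families in each mouse, with group medians as lines. For Cacna1h the sum holds only the T-type members, Cacna1g and Cacna1h. Itpr2 has a median share of 17.2% in HGPS and 6.49% in 2-mo WT, and Cacna1h of 41.6% at 24 mo and 8.81% in 2-mo WT.

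Promoters of the members were read, and 3 are shown as examples. RefSeq windows of 300 bases (GRCm38.p6, from 250 before to 50 after a transcription start) were found for 28 of the 34 members, 37 windows in all, and none was found for Itpr1, Cacna1h, Cacna1g, Atp2a2, Ryr3 or Trpm4. The 3 below belong to Pln, the member with the largest fall, Cacna2d1, a channel subunit that fell, and Itpr2, which rose. Each is written 5′ to 3′ on the strand of its gene, at chr10:53337436-53337735 (plus strand), chr5:15934441-15934740 (plus strand) and chr6:146502174-146502473 (minus strand). Capitals mark matches to TATAAA, the core sequence of a TATA box, and GGGCGG, a binding motif of Sp1, on either strand and at any position. Whether a match is used was not tested, and the TATAAA of Pln lies near the 5′ end of its window, far from the transcription start.
Pln: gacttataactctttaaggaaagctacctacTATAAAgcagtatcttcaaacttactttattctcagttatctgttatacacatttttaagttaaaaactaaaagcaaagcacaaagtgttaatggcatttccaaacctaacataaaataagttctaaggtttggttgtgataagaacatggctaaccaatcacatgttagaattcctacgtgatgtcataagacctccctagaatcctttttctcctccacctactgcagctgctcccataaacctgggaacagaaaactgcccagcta
Cacna2d1: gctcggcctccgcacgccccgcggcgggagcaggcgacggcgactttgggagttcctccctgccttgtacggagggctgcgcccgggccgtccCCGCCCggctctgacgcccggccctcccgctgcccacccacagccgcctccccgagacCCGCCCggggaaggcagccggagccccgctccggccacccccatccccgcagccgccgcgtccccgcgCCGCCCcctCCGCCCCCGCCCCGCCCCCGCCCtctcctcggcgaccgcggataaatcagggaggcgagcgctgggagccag
Itpr2: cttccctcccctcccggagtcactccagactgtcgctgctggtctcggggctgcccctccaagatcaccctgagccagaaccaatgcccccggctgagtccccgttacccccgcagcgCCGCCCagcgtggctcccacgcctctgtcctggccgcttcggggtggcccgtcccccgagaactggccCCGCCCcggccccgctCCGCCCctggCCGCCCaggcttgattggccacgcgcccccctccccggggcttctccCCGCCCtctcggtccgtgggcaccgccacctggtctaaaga

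The Pln window was AT-rich, with 36% G and C and no GGGCGG, whereas that of Cacna2d1 had 80% and 7 matches and that of Itpr2 had 73.3% and 5 matches. Ryr2 and Cacna1d fell more than Cacna2d1, and Piezo1 rose more than Itpr2. The Piezo1 window had 75% G and C, 1 GGGCGG and 1 TATAAA, and that of Ryr2 had 65.3% and 2 GGGCGG. For Cacna1d the windows had 87.3% and 40.3%. The median was 65.3% over the member windows and 52.7% over all 32851 windows. GGGCGG was found in 23 of the 37 member windows and 35.7% of all windows, and TATAAA in 5 and 13.6%. The CArG box, the site of serum response factor, matched 1 member window (Trpc6) and 1.63% of all windows. An MEF2 site, bound by myocyte enhancer factors, matched 1 (Casq2) and 3.19%. TATAAA overlapped a CArG box or an MEF2 site in 245 of all windows and in 0 of the member windows.

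A further 110 genes of calcium handling, of which 81 could be tested, were read beside the members. In HGPS 20 fell and 19 rose, with a median log2 fold change of -0.01, where 21.2% of all genes fell and 22% rose. Past both cut-offs 7 fell and 4 rose, against 4.23% and 5.27% of all genes. The 5 largest of these 11 were Nfatc2, Rrad, Hrc, Mcub and Tmem110. Store proteins and release-unit scaffolds held 7 of the falls and 5 of the rises among 21 genes. Hrc, a histidine-rich calcium-binding protein of the store, had 3.42 to 4.50 CPM in HGPS and 7.34 to 11.0 CPM in 2-mo WT, a fall of 1.24 (adjusted p = 1.8e-07). Tmem110, a regulator of Stim1 at the store membrane, had 89.1 to 137 CPM against 206 to 267 CPM and fell by 1.05 (adjusted p = 3.81e-07). Rrad, a small GTPase that restrains L-type channels, had 47.2 to 84.8 CPM against 99.4 to 213 CPM and fell by 1.35 (adjusted p = 0.000272).

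Of 8 genes of mitochondrial calcium uptake 5 rose and 0 fell, with a median log2 fold change of 0.26. Mcub, the inhibitory subunit of the mitochondrial uniporter, had 6.05 to 8.91 CPM in HGPS and 2.52 to 3.77 CPM in 2-mo WT and rose by 1.14 (adjusted p = 5.05e-05). The 20 tested genes of calmodulin, CaMKII and calcineurin-NFAT signalling split into 6 that rose and 6 that fell. Nfatc2, a transcription factor that calcineurin activates, had 5.52 to 11.6 CPM against 2.66 to 3.67 CPM and rose by 1.38 (adjusted p = 5.45e-05). The remaining lists held 1 rise and 2 falls among 10 voltage-gated channel subunits, 2 of each among 14 TRP, P2X and stretch-activated channels, and 0 rises and 3 falls among 8 pumps and exchangers. None of the 5 genes named above overlapped between HGPS and 2-mo WT.

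**Figure D5:**
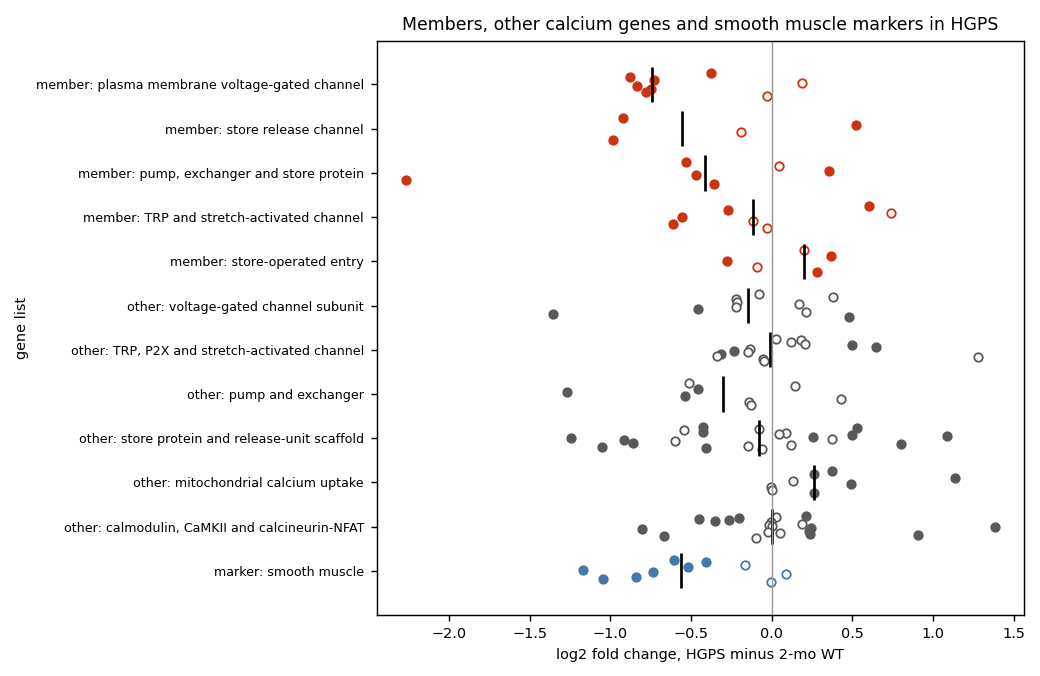
Log2 fold change of HGPS minus 2-mo WT (horizontal axis) for every tested gene of the 5 member roles, the 6 lists of other calcium genes and the smooth muscle markers (vertical axis). Filled points had an adjusted p under 0.05 and black lines are list medians, from -0.74 for the voltage-gated channels to 0.26 for mitochondrial uptake.

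At 24 mo 13 of the 81 other genes rose and 4 fell, with a median of 0.03, against 6.29% and 5.38% of all genes. Past both cut-offs 3 rose, against 1.28% of all genes. Cacna2d3, an auxiliary subunit related to Cacna2d1, had 13.1 to 22.2 CPM at 24 mo and 2.01 to 4.39 CPM in 2-mo WT and rose by 2.37 (adjusted p = 2.59e-07). Piezo2, the relative of Piezo1 known from sensory neurons, had 20.5 to 45.5 CPM against 10.4 to 13.6 CPM and rose by 1.44 (adjusted p = 1.89e-05). Slc8a3, a sodium-calcium exchanger related to Slc8a1, had 6.60 to 16.9 CPM against 4.59 to 6.82 CPM, with overlap, and rose by 1.17 (adjusted p = 0.000281).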

How the data were processed

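RNA of 18 descending aortas was measured, 6 per group. The authors assigned paired-end reads of stranded total RNA libraries to GENCODE M23 transcripts (GRCm38.p6) with salmon, summed them per gene with tximport and deposited estimated counts as whole numbers, without normalization; whether they were rounded is not stated. Symbols, coordinates and exon lengths came from GENCODE M21, which held 54107 of the 54281 identifiers.

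The 15210 genes that reached 10 counts in 6 or more mice entered a quasi-likelihood fit in edgeR 4.0.16 under R 4.3.3 after TMM scaling, the 3 groups in one fit with 15 residual degrees of freedom and Benjamini-Hochberg adjustment over all genes tested. CPM values are TMM-scaled. Standard errors (SE) were derived from the F statistic of each gene and its log2 fold change. The fits were tested on simulated data.

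Members and gene lists were chosen with earlier results of these data known. Members past the test in either comparison with 2-mo WT and with a mean of at least 50 counts are given in full, other members by level or change, and of the other calcium genes at most the 5 largest past the cut-offs per comparison. Alternatives were DESeq2 1.42.0, limma-voom 3.58.1, RLE and upper-quartile scaling, other filters, a replicate block, fits of 2 groups, thinned libraries, cell type scores as covariates, and each mouse left out. Replicate numbers name different animals.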

Additional observations from a re-analysis of the deposited data

Results flagged for a closer look

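In 4 of 87 sets of 6 mice (29 members in 3 groups), 1 mouse lay far from the others by Dixon's criterion, which chance meets in about 1 in 20 sets. Ryr2 in 24-mo WT replicate 1 was at 162 CPM, with the next at 106 CPM. Trpc1 in the same mouse was at 23.9 CPM, below the next at 31.3 CPM. Atp2b4 in 2-mo WT replicate 1 was at 273 CPM, below the next at 334 CPM. Trpm7 in HGPS replicate 4 was at 168 CPM, above the next at 139 CPM. No cause was tested.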

How the results depend on the processing

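Under alternative scaling, filters, tools and left-out mice (27 fits), 17 of the 21 calls in HGPS against 2-mo WT, all 4 at 24 mo and 20 of the 23 between HGPS and 24-mo WT were kept in every fit. Exceptions were Cacna1c, Trpc1, Stim2 and Orai2 in the first and Itpr2, Slc8a1 and Stim1 in the third.

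With a smooth muscle score as a covariate, against 2-mo WT 0 members fell (16 in the main test), 0 rose (5) and 0 fell past the cut-offs (9), and against 24-mo WT 1 fell (19), 0 rose (4), 0 fell (9) and 0 rose (1) past the cut-offs. Log2 fold changes reversed against 2-mo WT to 0.25 for Cacna1c, 0.14 for Atp2b4, 0.0655 for Trpc1 and -0.0891 for Orai2, and against 24-mo WT to 0.30 for Cacna1c, 0.10 for Cacna1g, -0.15 for Itpr2, 0.0397 for Atp2a2, 0.28 for Atp2b4, 0.17 for Slc8a1 and 0.0273 for Orai3. The score did not overlap between HGPS and either WT group. With brown fat and skeletal muscle scores, 2 members rose in HGPS (5 in the main test), 4 fell past the cut-offs (9), the calls for Itpr2, Piezo1, Orai2 and Slc8a1 were lost, Trpc1 turned to 0.0366, and 2 rose at 24 mo, where Cacna1d (0.50, adjusted p = 0.129) and Ryr2 (0.45, adjusted p = 0.0812) no longer passed. Against 24-mo WT 7 of 23 calls were lost (Cacna1c, Cacna1g, Itpr2, Slc8a1, Trpc1, Stim1 and Orai3). Calls over all genes dropped in that fit too. Against 2-mo WT 1781 genes rose and 1827 fell in HGPS (3340 and 3227 in the main test), and 184 fell past the cut-offs (644). At 24 mo 645 rose (957). Between HGPS and 24-mo WT 2128 were higher and 2178 lower (3618 and 3583). With a cardiac muscle score, the calls for Cacna1c, Trpc1 and Stim2 in HGPS against 2-mo WT were lost (adjusted p = 0.0686, 0.209 and 0.068). The call for Ryr2 at 24 mo was also lost (adjusted p = 0.0686), and all 23 calls against 24-mo WT were kept. Over all genes 2817 rose and 2674 fell in HGPS against 2-mo WT in that fit. The cause of these losses was not tested.

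Past the cut-offs, 1 member rose in HGPS with DESeq2 (Piezo1). At 24 mo 2 rose with DESeq2, upper-quartile scaling or thinned libraries (Atp2a3 added), and 3 without a filter, where Trpc4 was tested. Against 24-mo WT, 0 rose with only the 2 groups fitted (Piezo1 lost; 1 in the main test).

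With each mouse left out, HGPS against 2-mo WT gave 3 to 5 that rose (3 without HGPS replicate 6), 14 to 17 that fell, 0 to 1 that rose past the cut-offs (1, Itpr2, without 2-mo WT replicate 1) and 7 to 9 that fell past them. At 24 mo 4 to 5 rose, 1 to 2 past the cut-offs (2 without HGPS replicate 4 or 2-mo WT replicate 6). Against 24-mo WT 17 to 20 fell, 3 to 4 rose, 9 to 10 fell past the cut-offs and 0 to 1 rose past them (0 without HGPS replicate 1, 3 or 6 or 24-mo WT replicate 2, 3, 4, 5 or 6).

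Same-numbered mice did not deviate together (correlations from -0.09 to 0.13), so the numbers do not pair the animals. With the replicate block 5 members rose and 16 fell in HGPS against 2-mo WT, and the block removed 1 call, Stim1 against 24-mo WT (adjusted p = 0.0547). Members under 10 counts are limited by depth.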

Other observations

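Casq1 and Casq2 encode the skeletal and cardiac forms of calsequestrin, and their levels were set side by side after their values were seen. Casq1 had 74.5 to 139 CPM in 2-mo WT, 79.9 to 153 CPM in HGPS and 78.3 to 111 CPM in 24-mo WT, while Casq2 reached at most 0.729 CPM in any library. Casq1 did not pass the test in HGPS (log2 fold change -0.08, adjusted p = 0.721) or at 24 mo (-0.21, adjusted p = 0.456). Skeletal muscle markers were low beside it. The skeletal myosin genes Myh1, Myh2 and Myh4 were at a median of 0 CPM in both WT groups, and all 10 skeletal markers together summed to 5.03 to 13.0 CPM over the 18 mice.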
